A study of Rattus norvegicus with 6 samples.

Results

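Aminoacyl-tRNA synthetases are the enzymes that load each transfer RNA with its amino acid. They were picked by gene name: 1 capital letter followed by ars and then nothing, 1, 2 or 3, together with Farsa, Farsb and Eprs. The rule found 35 of the 18077 rows in the count tables, of which 21 encode cytosolic enzymes and 14, with names ending in 2, mitochondrial ones. Reads per gene were counted in polyA RNA from 6 cultures described as neonatal rat cardiomyocytes, beating muscle cells taken from pups of 1 to 3 days. All 6 received palmitic acid (500 µM for 24 h), a saturated fat, carried an adenoviral vector and were harvested after 48 h. The control group, Ad-GFP (3 libraries), had a vector for green fluorescent protein. The other group, Ad-RNF128 (3 libraries), had a vector for RNF128, a membrane ubiquitin ligase. The cells came from a preparation that was pre-plated and kept in BrdU to hold back fibroblasts, and the labels name no separate animals, so p-values measure only the spread between these cultures, which may be technical. All 35 members passed the filter on low counts.

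Each synthetase recognises 1 amino acid and the transfer RNAs that carry it, and a cell needs a full set for the cytosol and another for the mitochondrial matrix, whose enzymes are encoded in the nucleus. In most cases separate genes serve the compartments, but Kars and Gars each supply both. Several cytosolic enzymes sit with scaffold proteins in the multi-synthetase complex. When amino acids run short, uncharged transfer RNA activates the kinase GCN2 (Eif2ak4), and translation of the transcription factor ATF4 rises. ATF4 acts on C/EBP-ATF response elements, and many genes of cytosolic synthetases are among its known targets. Wars1, the tryptophan enzyme, is also a classic gene of the interferon response.

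Library totals ran from 16352844 to 21708973 counts. Rnf128 had 0 to 2 counts in the Ad-GFP libraries and 1 to 3 in those labelled Ad-RNF128, so counts on the rat gene do not bear out that label, and every direction below is for the libraries labelled Ad-RNF128. The 10 cardiomyocyte markers with a row summed to 398 and 395 CPM (counts per 1000000 of the library total) in Ad-GFP replicates 2 and 3, to 76.7 in replicate 1 and to 35.4 to 119 in the libraries labelled Ad-RNF128. Tnnt2 made up most of the sums in Ad-GFP replicates 2 and 3 and was at 13.3 CPM in replicate 1, and no other cardiomyocyte marker passed 17.5 CPM in any library. Ad-RNF128 replicate 3 nearly lacked these markers apart from Tnnt2: Myh6 had 2 counts there against 244 and 235 in replicates 1 and 2, Myh7 1 against 232 and 222, Actc1 5 against 299 and 241, and Nppa and Myl7 had none. The 8 fibroblast markers summed to 38420.0 and 40053.8 CPM in Ad-GFP replicates 2 and 3, to 3242.7 in replicate 1 and to 10539.1 to 11449.7 in Ad-RNF128. Col1a1, Col1a2 and Col3a1 made up most of each sum, and Postn was also lower in Ad-RNF128 than in Ad-GFP replicates 2 and 3. Thy1 was not lower, at 224 and 251 CPM in those controls and 287 to 305 CPM in Ad-RNF128. Pdgfra, Dcn and Lum were at most 2.86 CPM in any library. Smooth muscle markers summed to 4693.6 to 5826.2 CPM over the 6 libraries, but did not move together. Acta2 was at 3427 to 3899 CPM in Ad-RNF128 against 4045 and 4491 in Ad-GFP replicates 2 and 3. Myh11 (27.0 to 28.1 against 7.42 and 9.09 CPM), Tagln and Cnn1 were higher in Ad-RNF128 than in those controls. Skeletal muscle markers summed to 40.7 to 100.03 CPM and lower in Ad-RNF128, and endothelial markers to 0.57 to 1.38 CPM. Leukocyte markers summed to 1.41 to 4.79 CPM, with Ptprc and Adgre1 without a read in the controls. Against Ad-GFP replicates 2 and 3, Csf1r and Cd68 were higher in Ad-RNF128 and Cd3e lower, all at most 2.67 CPM. Whether the makeup of the cultures plays a part in the synthetase values was not tested, and in bulk RNA fewer cells of a type and less RNA per cell cannot be told apart. Ad-GFP replicate 1 stood apart: over the 35 members its Spearman correlation with the other libraries was 0.635 to 0.706, against 0.974 to 0.996 among the other 5. It is therefore shown separately, and in the comparison that follows Ad-GFP replicates 2 and 3 serve as the 2 controls for all 3 libraries labelled Ad-RNF128.

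Synthetase genes changed little, and as many rose as fell. In edgeR's quasi-likelihood test with Benjamini-Hochberg adjustment over all genes, 7 members rose, 7 fell and 21 did not pass the threshold of 0.05. Of all 13173 genes tested, 28.9% rose, 28.0% fell and 56.9% changed in either direction, so the 14 of 35 synthetases that passed are not more than the background. CPM values of the groups did not overlap in 23 of 35 members, against 72.3% of all genes, and 12 of the 14 that passed were among them. Without Ad-RNF128 replicate 3, which nearly lacked cardiac markers, 6 members rose and 7 fell, beside 3716 and 3409 of the 13030 genes tested there. Fitted log2 changes, Ad-RNF128 over Ad-GFP, lay between -0.46 and 0.46, and 0 members changed 2-fold, whereas 12.5% of all tested genes had a fitted change of at least that size and 12.2% also passed the test. The median size of the change, without its sign, was 0.18 for the members and 0.33 for all genes. The signed median was -0.02 for the cytosolic and 0.08 for the mitochondrial members, against 0.01 for all genes tested. The 21 that did not pass had log2 changes of -0.19 to 0.29 with SEs of 0.06 to 0.19, which does not show that they stayed level. Sizes this small depend on the scaling. With library totals alone, in place of the trimmed mean of M-values (TMM), the median of all genes shifted to 0.17 and 15 members were higher and 4 lower, beside 40.6% and 18.3% of all genes (58.9% in either direction). All 7 that rose also passed there, as did 4 of the 7 that fell (Tars3, Iars2, Gars and Tars1).

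**Figure D1:**
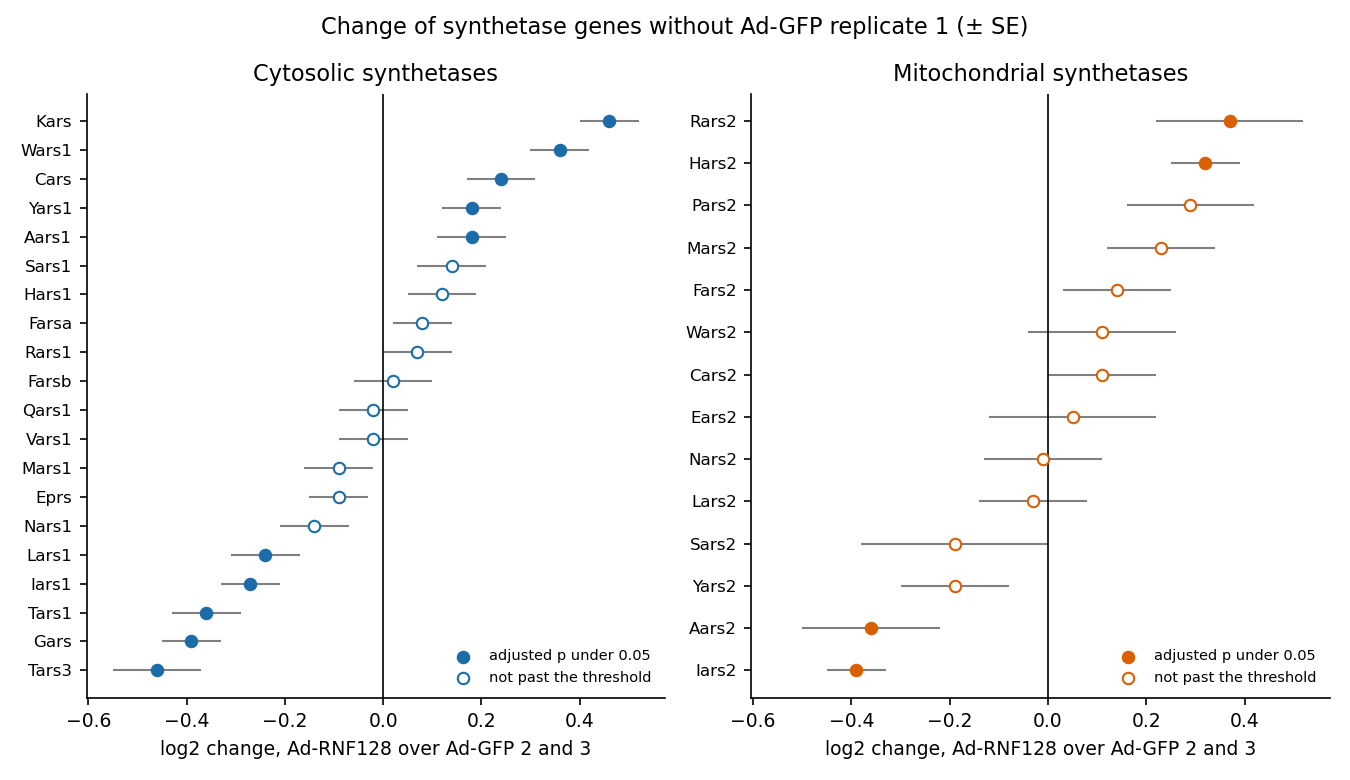
Log2 change of the synthetase genes reported by name, libraries labelled Ad-RNF128 over Ad-GFP replicates 2 and 3, with horizontal bars for the SE, cytosolic members at left and mitochondrial members at right. Filled points passed an edgeR adjusted p of 0.05 (5 higher and 5 lower at left, 2 and 2 at right), and all points lie between -0.46 and 0.46.

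Among the cytosolic enzymes the lysine gene rose most. Kars (ENSRNOG00000019456), which makes the lysyl enzyme of both compartments, was at 232 and 237 CPM in Ad-GFP replicates 2 and 3 and at 349, 367 and 363 CPM in Ad-RNF128 replicates 1 to 3. Every library labelled Ad-RNF128 was above both controls, by a ratio of mean CPM of 1.53. The log2 change was 0.46 ± 0.06 (SE, edgeR adjusted p = 2.44e-05), and 36.0% of all tested genes had a larger change in either direction. Ad-GFP replicate 1 held it at 188 CPM, below all of these.

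The tryptophan gene came next. Wars1 (ENSRNOG00000004359) was at 150.3 and 149 CPM in both controls, compared with 214, 216 and 211 CPM in Ad-RNF128. The groups lay well apart, with a log2 change of 0.36 ± 0.06 (edgeR adjusted p = 0.000182), and Ad-GFP replicate 1 held it at 106 CPM. Both other genes of the interferon response with a row also rose. Gbp2, an interferon-induced GTPase, was at 22.3 and 20.1 CPM in both controls against 216, 255 and 229 CPM in Ad-RNF128, a log2 change of 3.31 ± 0.09 (edgeR adjusted p = 6.67e-13). Irf1, a transcription factor induced by interferon gamma, rose by 0.82 ± 0.09 on the log2 scale (edgeR adjusted p = 1.32e-06).

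Cars, Yars1 and Aars1 rose by less. Cars (ENSRNOG00000020651), for cysteine, was at 204 and 198 CPM in both controls against 251, 274 and 268 CPM in Ad-RNF128 (change of 0.24 ± 0.07 on the log2 scale, edgeR adjusted p = 0.00539). Aars1 (ENSRNOG00000018404), for alanine, was at 666 and 679 CPM and at 783, 862 and 893 CPM. Its log2 change of 0.18 ± 0.07 sat at the threshold (edgeR adjusted p = 0.045) and did not pass without Ad-GFP replicate 2, Ad-RNF128 replicate 2 or Ad-RNF128 replicate 3 (adjusted p of 0.182, 0.0722 and 0.106). Yars1, for tyrosine, had a log2 change of 0.18 ± 0.06 (edgeR adjusted p = 0.026). In all 3 genes every library labelled Ad-RNF128 was above both controls.

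The genes for threonine, glycine and isoleucine fell. Tars3 (ENSRNOG00000024460), a second cytosolic threonyl enzyme, was at 23.0 and 20.3 CPM in both controls, compared with 18.5, 16.4 and 17.7 CPM in Ad-RNF128 (change of -0.46 ± 0.09 on the log2 scale, edgeR adjusted p = 0.000713). Tars1 (ENSRNOG00000019023), the main threonyl enzyme, went the same way, from 448 and 385 CPM to 361, 361 and 362 CPM (log2 change -0.36 ± 0.07, edgeR adjusted p = 0.000303). The controls differed more from each other in Tars1 than the 3 libraries labelled Ad-RNF128 did. Gars (ENSRNOG00000011052), which supplies the glycyl enzyme to both compartments and whose human counterpart is mutated in a hereditary neuropathy, was at 433 and 401 CPM and at 346, 358 and 359 CPM (log2 change -0.39 ± 0.06, edgeR adjusted p = 8.04e-05). Iars1 (ENSRNOG00000014616), for isoleucine, was at 166 and 156 CPM and at 144, 153 and 149 CPM. Its groups were close, and its log2 change of -0.27 ± 0.06 (edgeR adjusted p = 0.00245) was -0.11 with library totals alone, where it did not pass (adjusted p = 0.136). Lars1, the leucyl enzyme, which also senses leucine for mTORC1, passed with -0.24 ± 0.07 (edgeR adjusted p = 0.0108), but its groups overlapped, and with library totals alone it did not pass (adjusted p = 0.336).

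**Figure D2:**
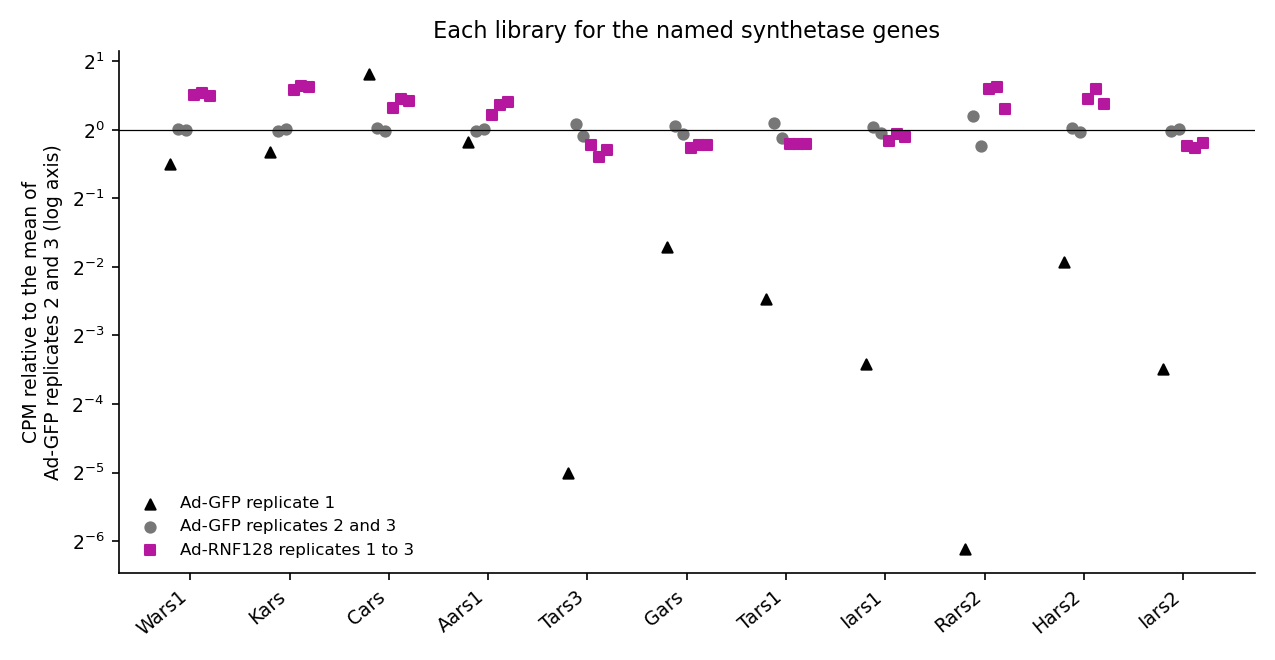
CPM of each library divided by the mean of Ad-GFP replicates 2 and 3 (log axis) for the 11 synthetase genes given with full values. Squares (Ad-RNF128) lie above the line for Wars1, Kars, Cars, Aars1, Rars2 and Hars2 and below it for Tars3, Gars, Tars1, Iars1 and Iars2, while the triangle (Ad-GFP replicate 1) ranges from 0.0145 for Rars2 to 1.75 for Cars.

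Of the 14 mitochondrial members 2 rose and 2 fell, beside 28.9% and 28.0% of all genes tested. Hars2 (ENSRNOG00000016087), for histidine, was at 56.4 and 54.4 CPM in both controls, compared with 75.7, 83.2 and 72.2 CPM in Ad-RNF128 (change of 0.32 ± 0.07 on the log2 scale, edgeR adjusted p = 0.00184). Iars2 (ENSRNOG00000002368), for isoleucine, fell from 129 and 131 CPM to 109.8, 108 and 113 CPM (log2 change -0.39 ± 0.06, edgeR adjusted p = 0.000126). Neither gene's groups overlapped.

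Rars2 (ENSRNOG00000008643), for arginine, had 176 and 153 counts in the controls and 218, 283 and 200 in Ad-RNF128, or 9.75 and 7.17 CPM against 12.8, 13.0 and 10.4 CPM. Its log2 change of 0.37 ± 0.15 was just past the threshold (edgeR adjusted p = 0.0437). It was 0.18 without Ad-GFP replicate 3 (adjusted p = 0.385) and did not pass without Ad-RNF128 replicate 1 or 2 either (adjusted p = 0.113 for each). Aars2, whose human counterpart is mutated in an infantile cardiomyopathy, passed with -0.36 ± 0.14 (edgeR adjusted p = 0.0381), but its groups overlapped, at 12.5 and 11.3 CPM against 9.24, 9.35 and 12.3 CPM. It did not pass with library totals alone (adjusted p = 0.227). The other 10 mitochondrial members (Cars2, Ears2, Fars2, Lars2, Mars2, Nars2, Pars2, Sars2, Wars2 and Yars2) did not pass. Pars2, for proline, came nearest the size of those that did, with 0.29 ± 0.13 (edgeR adjusted p = 0.0655).

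Of 11 pairs of cytosolic and mitochondrial genes for the same amino acid, 7 had fitted changes of the same sign and 4 of opposite sign with TMM. The counts were again 7 and 4 with library totals alone, but not for the same pairs. There leucine turned to opposite signs (-0.09 for Lars1 and 0.13 for Lars2) and methionine to the same sign (0.06 for Mars1 and 0.39 for Mars2). With TMM both members passed in only 2 pairs. For isoleucine both fell, and for alanine Aars1 rose while Aars2 fell. The fitted changes had the same sign for histidine (0.12 for Hars1 and 0.32 for Hars2), tryptophan (0.36 for Wars1 and 0.11 for Wars2), arginine (0.07 for Rars1 and 0.37 for Rars2) and cysteine (0.24 for Cars and 0.11 for Cars2). In each of these 4 pairs 1 member passed. With library totals alone Hars1 (0.27, edgeR adjusted p = 0.00873), Rars1 (0.22, edgeR adjusted p = 0.0163) and Cars2 (0.27, edgeR adjusted p = 0.0479) passed as well. These differences between the paired genes were not tested themselves.

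Some members start close to a gene on the other strand, so the stretch between both starts is shared. In the RefSeq promoter windows of build GRCr8, Hars1 and Hars2 start 144 bp apart and Kars (Kars1 in RefSeq) starts 128 bp from Terf2ip, a telomere protein gene. These stretches are shown because 2 genes with separate readouts flank each of them. They are written on the plus strand, all in lower case.
Hars1 to Hars2, chr18:28672713-28672855: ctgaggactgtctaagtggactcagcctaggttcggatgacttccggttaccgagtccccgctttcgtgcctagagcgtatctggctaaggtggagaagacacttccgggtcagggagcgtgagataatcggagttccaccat
Kars1 to Terf2ip, chr19:56886084-56886210: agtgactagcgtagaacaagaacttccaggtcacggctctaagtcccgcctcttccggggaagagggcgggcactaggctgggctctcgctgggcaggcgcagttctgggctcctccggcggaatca

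Terf2ip did not follow Kars. It was at 25.7 and 25.8 CPM in both controls, compared with 24.0, 21.4 and 23.0 CPM in Ad-RNF128, a log2 change of -0.33 ± 0.08 (edgeR adjusted p = 0.00364), while Kars rose. Hars1 and Hars2 both had positive fitted changes, and the ratio of Hars1 to Hars2 counts was 1.83 and 1.67 in the controls and 1.55, 1.48 and 1.52 in Ad-RNF128. In Ad-GFP replicate 1 that ratio was 1.8, near the other controls, although both genes were there at 26.9% and 26.2% of their level in replicates 2 and 3. The 2 genes encode similar proteins, and the handling of reads that match both is not given in these sources. Rars2 starts 79 bp from Orc3, a subunit gene of the replication origin complex, which had -0.06 ± 0.11 (edgeR adjusted p = 0.653). Fars2 starts 361 bp from Lyrm4, which is needed for iron-sulfur clusters, and Ears2 starts 360 bp from Ubfd1. Lyrm4 rose by 0.54 ± 0.12 on the log2 scale (edgeR adjusted p = 0.00129) and Ubfd1 had -0.52 ± 0.06 (edgeR adjusted p = 6.52e-06), while Fars2 and Ears2 did not pass.

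C/EBP-ATF elements were searched in the RefSeq windows (GRCr8, 250 bases before to 50 after the start), using the letters TGATGNAA on both strands. A window was matched for 32 of the 35 members. Gars and Rars1 were not matched. The element was present in 7 of 18 cytosolic members (38.9%) and in 0 of 14 mitochondrial ones, against 3.98% of all 33469 windows. In every one of the 7 the match includes TTGCATCA or its reverse complement TGATGCAA. The matches follow with 16 bases on each side where the window allows, on the strand of the gene, with the element in capitals.
Aars1, chr19:55908354-55908393, plus strand: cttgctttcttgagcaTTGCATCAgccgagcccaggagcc
Cars (Cars1), chr1:208225329-208225368, minus strand: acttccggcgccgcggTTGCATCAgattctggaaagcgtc
Iars1, chr17:15193653-15193692, minus strand: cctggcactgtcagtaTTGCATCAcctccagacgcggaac
Mars1, chr7:65023747-65023786, minus strand: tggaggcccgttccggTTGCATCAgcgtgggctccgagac
Nars1, chr18:60275773-60275812, minus strand: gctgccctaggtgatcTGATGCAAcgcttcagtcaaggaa
Tars1, chr2:62114806-62114845, minus strand: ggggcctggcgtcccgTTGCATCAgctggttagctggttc
Yars1, chr5:146820185-146820212, plus strand: gagctacgagctcagcTGATGCAAcctg

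Counted from the start site as base 1, the match began at -24 in Iars1, -17 in Mars1, -14 in Nars1 and -27 in Tars1, at 18 in Cars, at 39 in Yars1 and at -112 in Aars1. Aars1 held another match, TTTCATCA, at 10. The 7 genes with the element did not move together. Aars1, Cars and Yars1 rose, Tars1 and Iars1 fell, and Mars1 (-0.09 ± 0.07, edgeR adjusted p = 0.267) and Nars1 (-0.14 ± 0.07, edgeR adjusted p = 0.0874) did not pass. The median log2 change of the 7 was -0.09, against 0.02 for the 11 cytosolic members with a window but no match. Of those 11, 2 rose and 2 fell, beside 28.9% and 28.0% of all genes tested.

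Of 9 genes of the amino acid starvation response with a row, 6 rose and 2 fell, with a median log2 change of 0.32. Of all genes tested 28.9% rose and 28.0% fell. Without the sign the median of these 9 was 0.48, against 0.18 for the synthetases and 0.33 for all genes, differences that were not tested. Ddit3, the stress transcription factor CHOP, was at 31.9 and 26.7 CPM in both controls against 155, 162 and 142 CPM in Ad-RNF128 (change of 2.23 ± 0.09 on the log2 scale, edgeR adjusted p = 1.86e-11). Trib3, a pseudokinase induced by CHOP and ATF4, rose by 1.95 ± 0.08 on the log2 scale. Chac1, which breaks down glutathione, rose by 0.84 ± 0.07. Atf4 itself was at 413 and 365 CPM and at 552, 609 and 562 CPM (log2 change 0.41 ± 0.07, edgeR adjusted p = 0.000143). Asns, asparagine synthetase, an amino acid enzyme with a well-known element of this kind, did not pass (0.07 ± 0.07, edgeR adjusted p = 0.41). The genes for the upstream sensor fell, Eif2ak4 by 0.69 ± 0.07 on the log2 scale (edgeR adjusted p = 1.65e-06) and its partner Gcn1 by 0.48 ± 0.07 (edgeR adjusted p = 4.96e-05). Ad-GFP replicate 1 held Trib3 at 909 CPM and Ddit3 at 143 CPM, and with it included the log2 changes were -2.26 and 0.07 and neither passed. In that comparison of all 6 libraries 8 of the 9 genes had fitted changes below 0, and 0 passed, as for all genes. Their median was -0.58 with TMM and 0.03 with library totals alone.

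**Figure D3:**
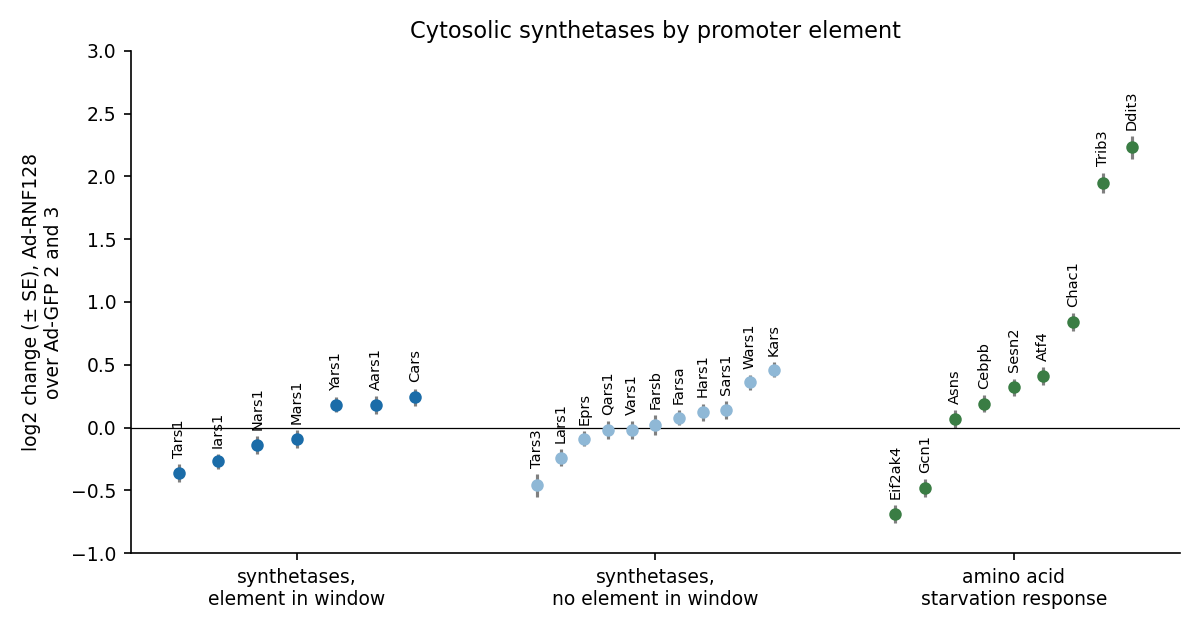
Log2 change (± SE, Ad-RNF128 over Ad-GFP replicates 2 and 3) of the 7 cytosolic synthetase genes with a C/EBP-ATF element in the promoter window, the 11 without one, and the 9 genes of the amino acid starvation response. Both synthetase sets spread around 0, from -0.36 to 0.24 with the element and from -0.46 to 0.46 without it. Ddit3 and Trib3 reach 2.23 and 1.95.

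The interferon-stimulated response element (GAAA, any 2 bases, GAAA, both strands) was found in 0 of 18 cytosolic windows and in Mars2 among the mitochondrial ones, against 3.92% of all windows. The gamma-activated site (TTCNNNGAA) was found in 3 of 18 cytosolic windows (16.7%, Aars1, Lars1 and Qars1) and 2 of 14 mitochondrial ones (14.3%, Nars2 and Wars2), against 8.87% of all windows. Wars1 held neither set of letters in its window. The site of the nuclear respiratory factor NRF1, which is known for its role at genes of mitochondrial proteins, was searched as GCGCA, any base, GCGC on both strands. It was found in 3 of 14 mitochondrial members (21.4%) and 3 of 18 cytosolic ones (16.7%, Farsb, Sars1 and Tars1), against 4.25% of all windows. The mitochondrial matches are shown with the site in capitals, on the strand of the gene.
Iars2, chr13:99397051-99397092, minus strand: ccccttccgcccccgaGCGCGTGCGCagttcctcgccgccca
Pars2, chr5:126662890-126662931, plus strand: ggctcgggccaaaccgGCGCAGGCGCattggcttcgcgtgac
Wars2, chr2:189150281-189150322, plus strand: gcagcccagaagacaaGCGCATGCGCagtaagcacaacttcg
Of these Iars2 fell, and Pars2 and Wars2 did not pass.

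The 8 synthetases of the multi-synthetase complex, among them Eprs, Mars1, Qars1 and Rars1, were split, with 1 higher (Kars), 2 lower (Iars1 and Lars1) and a median log2 change of -0.09. Of the 13 other cytosolic members 4 rose and 3 fell, with a median of 0.08. Eprs, a fusion of the glutamyl and prolyl enzymes, was at 1053 and 959 CPM in both controls against 1028, 1079 and 1038 CPM in Ad-RNF128, and did not pass (edgeR adjusted p = 0.219). Among the scaffold proteins Aimp1 rose by 0.28 ± 0.07 on the log2 scale (edgeR adjusted p = 0.00547), and Aimp2 and Eef1e1 did not pass. By the fold of the catalytic domain, 4 of 17 class I enzymes rose and 3 fell, with a median of 0.05. In class II 3 of 17 rose and 4 fell, with a median of 0.02. Eprs holds a domain of each class and was left out of the split by class. Beside these counts and those for the complex, 28.9% of all genes tested rose and 28.0% fell.

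Genes that finish or deliver charged transfer RNA had a median size of change, without its sign, of 0.30 (accessory genes) and 0.25 (elongation factors) on the log2 scale. Of 11 accessory genes 4 rose and 2 fell, with a signed median of 0.06. Among all genes tested 28.9% rose and 28.0% fell. Pstk, a kinase that makes phosphoseryl-tRNA on the way to selenocysteine, rose by 0.61 ± 0.12 on the log2 scale (edgeR adjusted p = 0.00047). Mtfmt, which formylates the mitochondrial initiator methionyl-tRNA, rose by 0.40 ± 0.13 (edgeR adjusted p = 0.0132). Gatb and Qrsl1, subunits of the mitochondrial amidotransferase that makes glutaminyl-tRNA, had -0.30 ± 0.11 and -0.47 ± 0.17 (edgeR adjusted p = 0.0291 and 0.0255), and neither passed with library totals alone. Of 6 elongation factor genes with a row 2 rose, the mitochondrial Tufm (0.25 ± 0.08, edgeR adjusted p = 0.0111) and Tsfm (0.28 ± 0.08, edgeR adjusted p = 0.0062). Eef1a1 was under 0.9 CPM in all 6 libraries, and since this gene has many near-identical copies its counts are uncertain.

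In Ad-GFP replicate 1 the synthetases ran from far below to far above the other 2 controls. Of the 35 members 19 were under 0.5 times the mean of replicates 2 and 3 (54.3%, against 60.2% of the 12483 genes with at least 20 counts in those replicates). Another 6 were over 2 times it (17.1%, against 17.8%). Rars2 had 2 reads there, or 1.45% of the mean of Ad-GFP replicates 2 and 3. Lars1, Eprs and Rars1 were at 2.63%, 2.78% and 4.53% of that mean.

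Other members went the opposite way in the same library. Vars1, for valine, was at 783 CPM against 169 and 176 CPM, and Sars1, for serine, at 831 CPM against 316 and 335 CPM. The 2 subunits of the cytosolic phenylalanyl enzyme, which work as 1 complex, parted there. Farsa was at 489 CPM against 102 in each of the other controls, and Farsb at 7.40 CPM against 79.3 and 66.4 CPM. The ratio of Farsa to Farsb counts was 66.0 in Ad-GFP replicate 1 and 1.29 to 1.58 in the other 5 libraries. Among members of the multi-synthetase complex, Lars1 at 2.63% and Qars1 at 137% of the mean of replicates 2 and 3 likewise lay far apart.

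**Figure D4:**
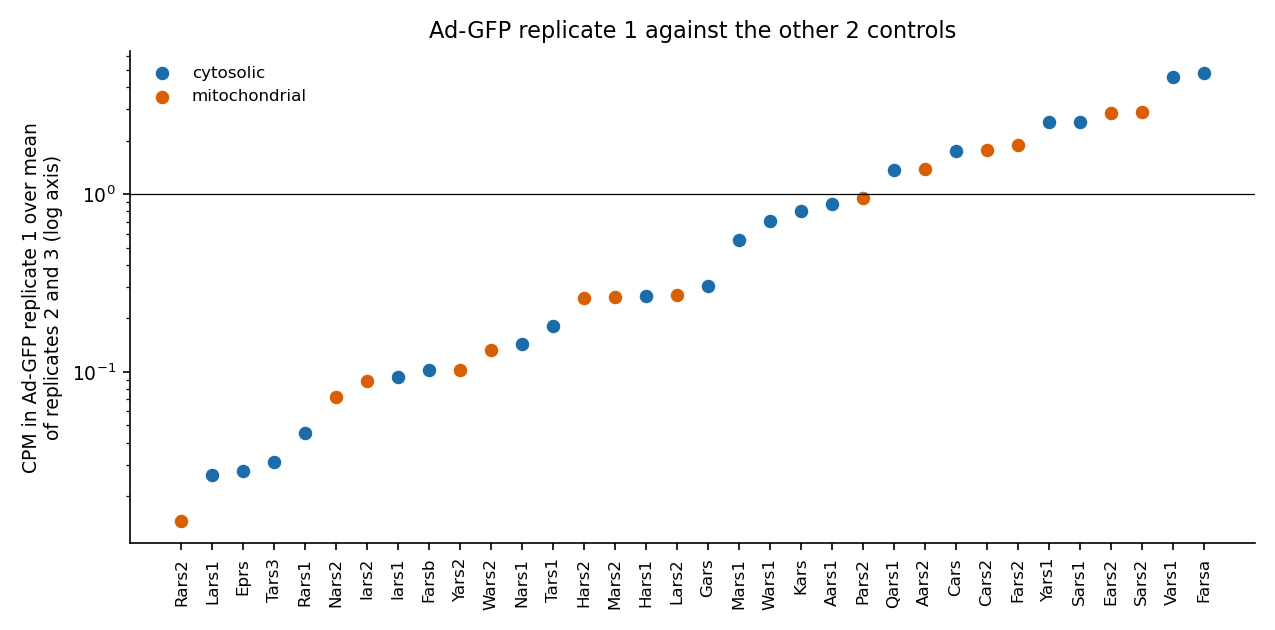
CPM of the synthetase genes reported by name in Ad-GFP replicate 1, divided by the mean of Ad-GFP replicates 2 and 3 (log axis), in rising order. Values run from 0.0145 for Rars2 to 4.79 for Farsa, with cytosolic and mitochondrial members mixed along the range.

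With this library included, no synthetase passed in the comparison of all 6. Of 12863 genes tested with edgeR 0.0% were called, and 0 members passed. An unadjusted edgeR p under 0.05 was found for 742 of these 12863 genes and for 0 of the 35 members, a difference that was not tested. DESeq2 called 3.44% of the genes it tested and edgeR with library totals alone 0.0622%, all of the latter higher, and neither called a member. The smallest adjusted p of a member was 0.681. Kars had a log2 change of 0.09 ± 0.39 and Wars1 0.07 ± 0.36, with TMM scaling, and 0.71 and 0.66 with library totals alone. The members with the largest fitted changes were Vars1 (-2.08 ± 1.04) and Farsa (-2.05 ± 1.05). Without Ad-GFP replicate 1 they had -0.02 ± 0.07 and 0.08 ± 0.06. In 10 members (Aars1, Hars1, Hars2, Kars, Mars2, Pars2, Rars1, Rars2, Wars1 and Wars2) every library labelled Ad-RNF128 had a higher CPM than all 3 controls, and in no member were they all lower. Of all genes tested 34.0% did not overlap between the groups in either direction, and 10 of 35 members is not more than that. The share of all genes in each direction was not counted, so the direction is not read as a trait of the members. CPM rests on library totals alone, with which the median log2 change of all genes over all 6 libraries was 0.35, against -0.02 with TMM.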

How the data were processed

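The authors deposited 1 table of gene counts for each of the 6 libraries, with Ensembl gene IDs. Per the submitters' processing notes HISAT2, HTSeq 0.13.5 and build mRatBN7.2 were used, with a strand setting not given in the sources used here. Whether reads of overlapping genes on opposite strands were kept apart is therefore not known. The Ad-GFP replicate 1 table was deposited with 1 value that is not whole, so its unit was taken to be expected counts, which were rounded. No member row repeats an ID. CPM is a count times 1000000 over the library total. Differential expression was tested with edgeR 4.0.16 (R 4.3.3) on all rows: filterByExpr, TMM, quasi-likelihood F-test, Benjamini-Hochberg adjustment, threshold 0.05. The SE was derived from the log2 change and its F statistic. The procedure was tested on simulated data. Having 2 control libraries, the comparison pools the spread over both groups. Alternatives were DESeq2 1.42.0, limma-voom (limma 3.58.1), library totals only, median-of-ratios factors, no filter, a stricter filter (mean CPM 1 and 10 counts in 3 libraries), a replicate block, and leaving out each library.

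The members, the lists and the separate treatment of Ad-GFP replicate 1 were chosen with earlier results of these data known. Full values go to Wars1 and to the up to 4 largest rises and falls per class that passed with groups that do not overlap. The ranking used log2 changes rounded to 2 decimals, so Aars1 and Yars1 tied at 0.18 and Aars1 was taken. Unrounded, Yars1 had the slightly larger change, with 70.9% of all tested genes beyond it against 71.1% for Aars1. The other genes named are examples from the fixed lists, genes with a start within 1000 bp on the other strand and members singled out in Ad-GFP replicate 1, the last 2 kinds chosen after their values were seen. Promoter windows come from RefSeq (GRCr8), not the build of the counts, and were matched by symbol or older symbol. Of the members, 1 is counted in the totals and not reported here by name.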

Additional observations from a re-analysis of the deposited data

How the results depend on the processing

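Without Ad-GFP replicate 1, 122 of the 132 values of the 11 genes given in full (12 alternatives each) kept their direction and their side of the threshold. The other 10 kept the direction and did not pass, in Aars1, Iars1 and Rars2. Aars1 also missed with median-of-ratios factors (adjusted p = 0.0522) and with no filter (0.052), and Rars2 with DESeq2 (0.085). With library totals only, 15 members were higher and 4 lower, beside 40.6% and 18.3% of all genes. The median log2 change was then 0.14 for cytosolic and 0.24 for mitochondrial members. Leaving out 1 library labelled Ad-RNF128 as well gave 5 to 7 members higher and 5 to 7 lower. Among all genes the counts were then 3527 to 3716 higher and 3215 to 3409 lower, of 12936 to 13079 tested. Leaving out 1 further library of either group gave cytosolic medians of -0.03 to 0.04, above 0 without Ad-RNF128 replicate 1. The mitochondrial medians were 0.02 to 0.16, the lowest without Ad-GFP replicate 2 and the highest without Ad-GFP replicate 3. A lone control was then assumed to vary like the other group.

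With all 6 libraries the cytosolic and mitochondrial medians were -0.22 and -0.03 with median-of-ratios factors and likewise -0.22 and -0.03 with DESeq2, in place of 0.06 and 0.10. They were 0.39 and 0.47 with library totals only and 0.15 and 0.21 with limma-voom. Leaving out 1 library gave 0 to 7 members higher and 0 to 7 lower, the 7 and 7 without Ad-GFP replicate 1 and 0 otherwise. The cytosolic median then ran from -0.03 to 0.07 (-0.02 without Ad-GFP replicate 1, -0.03 without Ad-GFP replicate 2 or 3) and the mitochondrial one from 0.05 to 0.37. The cause was not tested. Across all genes edgeR called 0, limma-voom 14 and DESeq2 244 higher and 142 lower.

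Samples of the 2 groups share only a replicate number. The deviations of same-numbered libraries from their group means correlated at -0.169, 0.012 and -0.127 over all 6. For numbers 2 and 3 without Ad-GFP replicate 1 they correlated at 0.059 and 0.118. Since deviations within a group cancel out, these values cannot decide whether the cultures were paired. With a replicate block the medians over all 6 were 0.12 (cytosolic) and 0.26 (mitochondrial) with 0 members called. Without Ad-GFP replicate 1 the block gave a cytosolic median of 0.02, with 9 members higher and 6 lower. Of all 13173 genes tested, the block called 3931 higher and 3867 lower. Outside Ad-GFP replicate 1, Rars2 rests on 153 to 283 counts per library, Ears2 on 76 to 124 and Sars2 on 96 to 129.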
